A study of Homo sapiens with 15 samples.

Results

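G2 cells were set against early S-phase cells in a SLAM-seq experiment on U2OS, a human osteosarcoma line, using the 3 libraries titled G2 and the 3 titled Early_S out of 15 libraries in all. Both gates hold U2OS cells, grown in medium with serum, that took up 4-thiouridine and EdU together for 45 min, were fixed with glyoxal and methanol, and were sorted by EdU signal and DNA content. The treatment protocol calls the last gate G2/M, so mitotic cells may be among the G2 cells. The series title speaks of synchronised cells, whereas the treatment protocol describes cells growing asynchronously, so each gate is a slice of a cycling population. RNA from each sort was alkylated, and 500 ng went into a 3' end library. The other libraries, 3 each of G1, Late_S and No_alkylation (a set left without the alkylation step), serve below only for the spread, for context and as the background of the chemistry. The labels do not say that the 3 libraries of a gate are separate cultures, so the p-values measure the spread between these libraries, which may be technical. In sorted bulk RNA, fewer expressing cells and less RNA per cell cannot be told apart.

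4-Thiouridine is a uridine analogue that cells build into new RNA. After alkylation it pairs with G, so that sequencing reads a C where the gene has a T, and a read with such a conversion, called a T>C read here, marks RNA made during the pulse. Cells in early S have just passed the G1/S switch, when E2F factors drive genes for replication. As cells finish replication and prepare to divide, genes for mitosis are switched on. Their promoters are controlled through CCAAT boxes bound by NF-Y and through a short element next to the start site. This element, the cell cycle homology region (CHR), is bound by the DREAM and MuvB complexes. For each gene, 3 quantities were compared: the steady-state level (all reads, as CPM, read counts scaled to the library size), the nascent level (T>C reads, as T>C CPM, scaled to the T>C reads of the library), and the labelled share (T>C reads as a percentage of all reads of the gene).

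The promoters of 6 genes that recur below show these elements. Each is 150 bases of the RefSeq promoter table (GRCh38.p14), from 100 bases before the annotated start to 50 after it, written 5′ to 3′ on the gene's strand. Capitals mark a CHR, a CCAAT box and, in the last, the E2F sites, each on either strand. The CHR was searched as TTTGAA. A second spelling, searched in the same way, was TTCGAA. The box was searched by the letters of its name. PLK1, CCNB2, CDCA8 and GPSM2 are genes higher in G2 with a CHR match, and E2F1 is a gene of early S. In CCNB1, also higher in G2, neither of the spellings searched was found in this window. Other spellings were not searched, so CCNB1 cannot be said to lack a CHR. CCNB2 and E2F1 were chosen after their values were seen. The promoters lie at chr16:23678789-23678938 on the plus strand (PLK1), chr15:59105046-59105195 plus (CCNB2), chr1:37692416-37692565 plus (CDCA8), chr1:108876885-108877034 plus (GPSM2), chr5:69167050-69167199 plus (CCNB1) and chr20:33686336-33686485 minus (E2F1).
PLK1: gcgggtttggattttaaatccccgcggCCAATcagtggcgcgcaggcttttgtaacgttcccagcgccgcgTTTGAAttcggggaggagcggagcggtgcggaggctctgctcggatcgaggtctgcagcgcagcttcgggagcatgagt
CCNB2: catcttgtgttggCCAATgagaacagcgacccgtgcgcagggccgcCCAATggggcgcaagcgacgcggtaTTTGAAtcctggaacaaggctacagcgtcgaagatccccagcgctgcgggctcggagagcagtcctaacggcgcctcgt
CDCA8: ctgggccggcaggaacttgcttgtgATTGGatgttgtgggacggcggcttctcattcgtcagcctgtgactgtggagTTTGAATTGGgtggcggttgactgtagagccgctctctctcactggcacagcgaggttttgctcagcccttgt
GPSM2: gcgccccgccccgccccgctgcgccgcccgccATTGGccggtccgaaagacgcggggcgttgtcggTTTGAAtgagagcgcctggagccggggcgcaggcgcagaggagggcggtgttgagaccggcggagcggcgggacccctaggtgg
CCNB1: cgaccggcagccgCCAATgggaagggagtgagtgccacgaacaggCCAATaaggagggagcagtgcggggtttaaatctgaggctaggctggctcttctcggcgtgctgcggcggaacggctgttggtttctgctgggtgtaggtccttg
E2F1: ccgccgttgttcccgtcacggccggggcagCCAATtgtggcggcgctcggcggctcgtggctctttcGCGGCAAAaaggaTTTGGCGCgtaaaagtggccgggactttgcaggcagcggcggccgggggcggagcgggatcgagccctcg

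In PLK1 and CCNB2 the CHR begins 29 bases before the start, in CDCA8 23 bases before it, where it overlaps a CCAAT match, and in GPSM2 34 bases before it. Over 300-base promoters (250 bases before the start to 50 after), searched on both strands, a CHR was present in 16.6% of all 27305 RefSeq promoters and in 11.3% of the 10852 promoters found for genes tested at steady state. Among genes higher in G2 at steady state it was present in 16.1%, and among genes lower in G2 in 9.09%. Of the genes higher at the nascent level, 21.1% held it, against 11.1% of genes tested at that level. Among the gene lists used below, 52.9% of the mitotic cyclin list, 76.5% of the chromosomal passenger and cytokinesis list, 72.0% of the spindle and kinesin list and 64.0% of the kinetochore list held a CHR. The E2F site (TTTCGCGC, TTTGGCGC, TTTCCCGC or TTTGCCGC) stood in 48% of the G1/S list and 50% of the licensing list, against 5.20% of promoters of genes tested at steady state and 3.33% of all promoters. A CCAAT box stood in 35.7% of all promoters. A match is a description of letters and was not tested.

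The 3 G2 libraries held 18203510, 18558531 and 21803972 reads in the counted regions, and the 3 Early_S libraries held 20571801, 18225677 and 16096695. Reads that also map elsewhere (multimapped) were 10.9% to 12.1% of reads over the 15 libraries. Of the 10 bone and mesenchymal markers, 8 were expressed well enough to test, with COL1A2 and TWIST1 at 0 in all 6 libraries. The summed marker level ran between 5443 and 5573 CPM in G2 and between 6052 and 6153 CPM in Early_S. COL1A1 and SPARC passed the test as lower in G2. Epithelial markers summed to 27.4 to 30.2 CPM in G2 and 19.8 to 24.9 CPM in Early_S, with KRT19 at 0. Blood cell markers summed to 4.10 to 6.66 CPM in G2 and 1.14 to 5.23 CPM in Early_S, with CD3E, HBB and LYZ among those at 0. No epithelial or blood marker passed the test.

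G2 libraries carried about 0.550 times the labelled reads of Early_S libraries. T>C reads were 10.2%, 9.77% and 10.4% of reads in the 3 G2 libraries, and 18.9%, 17.9% and 18.5% in the 3 Early_S libraries. The gates do not overlap, and the means were 10.1% ± 0.336 in G2 and 18.4% ± 0.516 in Early_S (SD, n = 3 each; exact permutation test, two-sided p = 0.1, the smallest that 20 assignments allow). Late_S stood at 10.0%, next to G2. The conversion rate, converted over covered T positions, was 1.28% ± 0.0521 in G2 and 2.35% ± 0.0902 in Early_S (SD, n = 3 each; exact permutation p = 0.1). The ratio of converted positions to T>C reads was 2.35 ± 0.0286 in G2 and 2.33 ± 0.00791 in Early_S (SD, n = 3 each, exact permutation p = 0.5). The No_alkylation libraries had 1.01% T>C reads and a conversion rate of 0.0447%. Their ratio of converted positions to T>C reads was 0.828. A T>C read holds at least 1 conversion, so the 2 counts may be filtered differently, and the ratio is not a strict count per read. The gates thus differed in how many reads were labelled, while the ratio of converted positions to T>C reads differed by less than the spread between the G2 libraries.

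**Figure D1:**
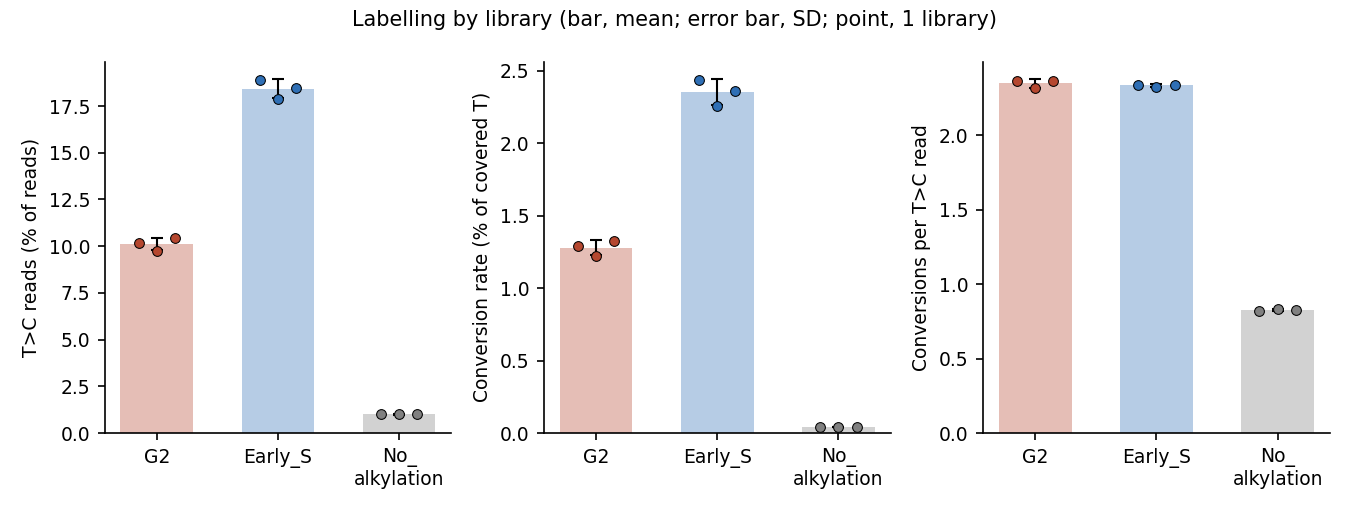
T>C reads as a percentage of reads (left), conversions as a percentage of covered T positions (middle) and conversions per T>C read (right) in G2, Early_S and No_alkylation libraries. Bars are means, error bars SD over 3 libraries and points single libraries. All 3 G2 libraries lie below all 3 Early_S libraries in the first 2 panels (10.1% against 18.4% T>C reads), and at the same height in the last.

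At steady state, 1428 of 13755 genes tested (10.4%) were higher in G2 and 1232 (8.96%) were lower, at a Benjamini-Hochberg adjusted p under 0.05 in edgeR's quasi-likelihood test. Most changes were small: 322 genes were over 2-fold higher and 225 over 2-fold lower. Genes of mitosis were higher in G2, as were genes for making ribosomes and a set of chaperones. Stress and growth-factor response genes, ribosomal protein mRNAs and respiratory chain mRNAs were lower in G2. Of the called genes, 1336 of 2660 kept their call in each of the 6 fits that leave out 1 library. The G2 and Early_S libraries did not overlap in 93.8% of the called genes, and in 31.9% of all genes tested. Levels in Late_S lay between those of both gates for 82.6% of the genes higher in G2 and for 85.3% of those lower.

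The mitotic cyclins and the kinases that switch CDK1 on were among the clearest changes. Coordinates of counted regions are those of the files (hg38). PLK1 (chr16:23690064-23690367, plus strand), the polo-like kinase that acts from mitotic entry to cytokinesis, had 269, 218 and 238 CPM in G2 and 92.1, 68.2 and 77.7 CPM in Early_S. Every G2 library was more than 2-fold above every Early_S library, and the fitted log2 change was 1.61 ± 0.12 (SE; edgeR adjusted p = 6.3e-14). AURKA, the kinase of centrosomes and spindle poles, had 238, 223 and 229.5 CPM in G2 and 77.4, 66.9 and 77.8 CPM in Early_S, a log2 change of 1.64 ± 0.11 (adjusted p = 2.9e-14). CCNA2, the cyclin of S and G2, had 144, 161 and 135 CPM in G2 and 58.1, 69.4 and 61.2 CPM in Early_S, a log2 change of 1.22 ± 0.12 (adjusted p = 1.2e-10). CCNB1, the cyclin that carries CDK1 into mitosis, changed less. It had 335, 346 and 354 CPM in G2 and 205, 219 and 237 CPM in Early_S, again without overlap, with a log2 change of 0.64 ± 0.09 (adjusted p = 6.9e-07). Its relative CCNB2 stood at 263, 226 and 233 CPM in G2 and 151, 136 and 149 CPM in Early_S, a log2 change of 0.73 ± 0.10 (adjusted p = 7.9e-07). Of the 23 genes of this list, 17 rose and 1 fell in G2, and the list's median log2 change was 0.73, against -0.03 over all genes tested. By stage, PLK1 averaged 79.3 CPM in Early_S, 174 CPM in Late_S and 242 CPM in G2, so its Late_S level was nearer to G2.

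Among genes of the chromosomal passenger complex and of cytokinesis, 15 of 19 rose, with a median log2 change of 0.88. CDCA8, the Borealin subunit that places Aurora B at centromeres, had 146, 118 and 143 CPM in G2 and 43.6, 36.7 and 53.2 CPM in Early_S (log2 change 1.61 ± 0.13, adjusted p = 2.9e-12). KIF20A, a kinesin of the central spindle, had 88.5, 107 and 106 CPM in G2 and 38.4, 35.2 and 38.8 CPM in Early_S (1.42 ± 0.14, adjusted p = 1.8e-10). ANLN, the anillin scaffold of the cleavage furrow, had 217, 212 and 201 CPM in G2 and 109.8, 121 and 112 CPM in Early_S (0.88 ± 0.10, adjusted p = 1.1e-08). The G2 and Early_S libraries were separate for all 3 genes. Spindle and kinesin genes behaved alike, with 21 of 27 higher, 1 lower and a median of 0.85. KIF2C, a microtubule-depolymerising kinesin, had 233, 235 and 245 CPM in G2 and 109, 105 and 108 CPM in Early_S (1.14 ± 0.10, adjusted p = 1.5e-11). FAM83D, which brings a kinase to the spindle, had 119, 101 and 133 CPM in G2 and 42.8, 42.4 and 46.0 CPM in Early_S (1.43 ± 0.14, adjusted p = 5.2e-10).

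Kinetochore and spindle checkpoint genes were more mixed: 16 of 31 rose and 3 fell, with a median of 0.41, and only 1 fell when Early_S library 2 or G2 library 2 was left out. BUB1B, the checkpoint protein BubR1, had 63.3, 74.6 and 69.2 CPM in G2 and 26.1, 19.8 and 15.8 CPM in Early_S (log2 change 1.74 ± 0.18, adjusted p = 9.1e-10). CENPF, a large outer kinetochore protein, had 136, 140.3 and 131 CPM in G2 and 61.7, 59.1 and 55.6 CPM in Early_S (1.21 ± 0.12, adjusted p = 5.5e-10). In both genes the lowest G2 library was more than 2-fold above the highest Early_S library. Of the anaphase-promoting complex and its substrates, 8 of 23 rose and 2 fell, with a median of 0.16. Of the 19 with under 10% multimapped reads 5 rose, and no gene fell without Early_S library 2 or G2 library 3. The activator CDC20 (24% multimapped) had 527, 521 and 579 CPM in G2 and 234, 223 and 216 CPM in Early_S, a log2 change of 1.27 ± 0.08 (adjusted p = 3.4e-15). UBE2C, the ubiquitin-conjugating enzyme of the complex, changed by 0.94 ± 0.10 (adjusted p = 3.3e-09) and its core subunit CDC27 by 0.84 ± 0.09 (adjusted p = 7.9e-10).

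Chromosome structure genes also rose: 15 of 25 condensin, cohesin and related genes were higher and 1 lower, with a median of 0.44. TOP2A, the topoisomerase that untangles sister chromatids, had 220.4, 214 and 187 CPM in G2 and 91.9, 108 and 81.3 CPM in Early_S (log2 change 1.14 ± 0.13, adjusted p = 4.5e-09). WAPL, which releases cohesin from chromosomes, had 80.8, 71.9 and 80.1 CPM in G2 and 22.6, 31.8 and 36.7 CPM in Early_S (1.36 ± 0.15, adjusted p = 1.2e-08). SMC4, the ATPase core of condensin, changed by 0.85 ± 0.08 (adjusted p = 8.2e-11). All 3 genes had their lowest G2 library above their highest Early_S library. When reads with a T>C conversion were left out, so that only RNA with no sign of labelling counted, the changes in several of these genes were larger: 2.12 for PLK1, 2.74 for AURKA, 1.99 for CCNA2, 2.64 for CDCA8, 1.81 for KIF2C and 2.15 for WAPL on the log2 scale. Labelling was lower in G2, so leaving out T>C reads takes more from a highly labelled gene in Early_S. That alone enlarges a rise in such a gene, so the larger values are no separate evidence of it. The counts of mitotic genes called hardly moved under that rule, with 16 of 23 mitotic cyclin and CDK1 switch genes and 22 of 27 spindle genes higher.

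**Figure D2:**
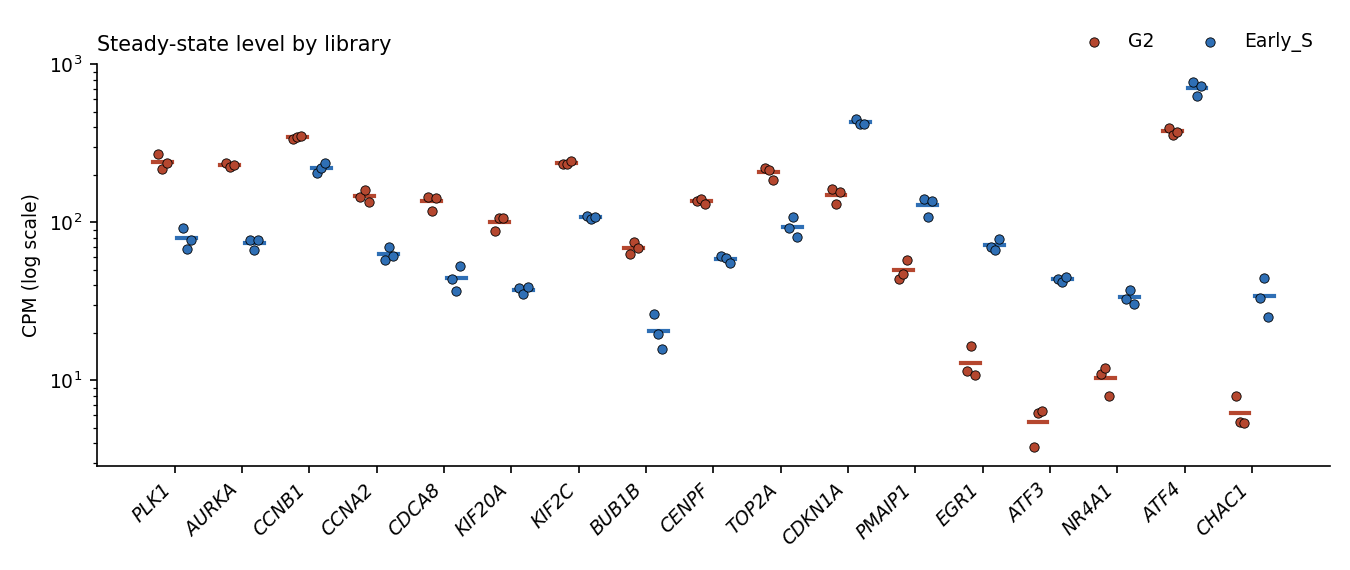
Steady-state level (CPM, log scale) of 17 genes in each G2 (red) and Early_S (blue) library; points are libraries and horizontal lines means of 3. The 10 mitotic genes on the left lie higher in G2, the least in CCNB1 (345 against 221 CPM on average) and the most in BUB1B (69.0 against 20.6 CPM), and the 7 response genes on the right lie lower in G2, with no overlap between gates in any of the 17.

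Genes of DNA replication did not move together. Of 29 G1/S E2F targets tested, 4 rose and 5 fell, with a median of 0.05, close to that of all genes; 3 fell when Early_S library 3 or G2 library 3 was left out. CCNE1, the cyclin that starts S phase, had 127, 118 and 102 CPM in G2 and 139.5, 146 and 136 CPM in Early_S, a log2 change of -0.28 ± 0.10 (adjusted p = 0.042) that lost its call in 5 of the 6 fits leaving out a library, and that was 0.22 in reads without a T>C conversion. CCNE2 was low, at 2.29, 8.82 and 4.19 CPM in G2 and 12.6, 10.9 and 13.4 CPM in Early_S (-1.27 ± 0.39, adjusted p = 0.017), and lost its call in 3 of the 6 fits. E2F1 itself had 77.2, 91.2 and 84.8 CPM in G2 and 117, 121 and 105 CPM in Early_S (-0.44 ± 0.11, adjusted p = 0.0044). In the other direction, the chromatin ATPase ATAD2 changed by 0.85 ± 0.08 (adjusted p = 9.0e-11), although 14% of its reads carried a T>C mark even without alkylation. MSH6, of mismatch repair, changed by 0.64 ± 0.08 (adjusted p = 2.5e-07).

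Origin licensing genes were as mixed, with 4 of 26 higher and 3 lower (8 higher and 7 lower in reads without a T>C conversion). ORC5, a subunit of the origin recognition complex, had 52.6, 48.8 and 50.6 CPM in G2 and 16.7, 22.1 and 17.7 CPM in Early_S (log2 change 1.43 ± 0.19, adjusted p = 3.5e-07). Replication fork and deoxynucleotide genes leaned lower: 10 of 34 fell and 3 rose, with a median of -0.23, and 6 fell when Early_S library 1 or G2 library 1 was left out. Both subunits of ribonucleotide reductase, which makes deoxynucleotides, were lower. RRM1 had 459, 472 and 464 CPM in G2 and 594, 653 and 611 CPM in Early_S (-0.41 ± 0.07, adjusted p = 2.2e-05). RRM2 had 433, 387 and 403 CPM in G2 and 524, 523 and 517 CPM in Early_S (-0.36 ± 0.07, adjusted p = 0.00018). CTPS1, which makes CTP, went the other way at 261, 257 and 267 CPM in G2 and 172, 141 and 167 CPM in Early_S (0.71 ± 0.09, adjusted p = 5.0e-08). PCNA, the sliding clamp, had 133, 135 and 125 CPM in G2 and 103, 141 and 126 CPM in Early_S, and these ranges overlap (0.08 ± 0.10, adjusted p = 0.65).

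Replication-dependent histone mRNAs mostly lack a poly(A) tail, and a 3' end kit primed from poly(A) reads few of them: 24 of 42 listed genes were in the files, 20 could be tested and 2 fell. HIST1H4C, a histone H4 gene, had 146, 211 and 132 CPM in G2 and 424, 516 and 303 CPM in Early_S (log2 change -1.35 ± 0.13, adjusted p = 2.8e-10). Every G2 library lay below every Early_S library, though the spread within each gate was wide. Regulators of the mitotic programme moved little. Of 12 FOXM1, MYBL2 and DREAM-MuvB genes tested, E2F4 rose (0.90 ± 0.14, adjusted p = 3.5e-06) and MYBL2 fell (-0.34 ± 0.07, adjusted p = 0.00024). FOXM1 had 234, 198 and 217 CPM in G2 and 265, 263 and 228 CPM in Early_S (-0.22 ± 0.08, adjusted p = 0.061). Among 26 genes of homologous recombination and the S checkpoint, 2 rose and 2 fell. RAD51C, a strand-exchange paralogue, was one of those lower (-0.62 ± 0.10, adjusted p = 7.1e-06).

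Targets of p53 were lower in G2. Of 30 tested, 12 fell, against 8.96% of all genes, and the median log2 change was -0.51. CDKN1A (chr6:36685801-36687339, plus strand), the CDK inhibitor p21, had 162, 131 and 155 CPM in G2 and 448, 419.7 and 422 CPM in Early_S, a log2 change of -1.53 ± 0.08 (adjusted p = 2.4e-17). PMAIP1, the death-promoting NOXA, had 43.9, 47.0 and 58.0 CPM in G2 and 141, 108 and 136 CPM in Early_S (-1.37 ± 0.12, adjusted p = 1.9e-11). GADD45A, a growth arrest gene, had 54.5, 40.1 and 56.9 CPM in G2 and 138, 106 and 134 CPM in Early_S (-1.32 ± 0.12, adjusted p = 8.2e-11). For each, the highest G2 library lay well below the lowest Early_S library. By stage, CDKN1A averaged 429.7 CPM in Early_S, 190.2 CPM in Late_S and 149 CPM in G2. In reads without a T>C conversion the log2 change of CDKN1A was -0.34 and that of PMAIP1 -0.85. Of the 30 targets, 9 fell and 3 rose in those reads. Labelling was higher in Early_S, so leaving out T>C reads removes more of a highly labelled gene there. These values therefore do not place the change in labelled RNA.

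Immediate early genes, which growth factors and stress switch on within minutes and whose mRNAs are short-lived, were lower still. Of 32 tested, 17 fell and 1 rose, with a median of -0.62. EGR1, a zinc finger factor, had 11.4, 16.6 and 10.8 CPM in G2 and 69.6, 67.1 and 78.0 CPM in Early_S, a log2 change of -2.47 ± 0.17 (adjusted p = 1.4e-14). ATF3, a stress-induced repressor, had 3.77, 6.26 and 6.38 CPM in G2 and 44.1, 41.7 and 44.9 CPM in Early_S (-2.99 ± 0.21, adjusted p = 2.9e-14). IER3 had 182, 191 and 201 CPM in G2 and 544, 475 and 450.4 CPM in Early_S (-1.35 ± 0.08, adjusted p = 8.8e-17). The Early_S libraries were 2-fold or more above the G2 libraries throughout these 3 genes. The orphan receptor NR4A1 changed by -1.70 ± 0.25 (adjusted p = 1.9e-06) and MYC, the growth regulator, by -0.96 ± 0.18 (adjusted p = 0.00015). In reads without a T>C conversion 4 of the 32 fell and 2 rose, with log2 changes of -1.33 for EGR1 and -0.46 for NR4A1.

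Targets of ATF4, the factor of the amino acid and unfolded protein responses, were lower as well: 13 of 26 fell and 1 rose, with a median of -0.37. ATF4 had 394, 359 and 375 CPM in G2 and 775, 629.6 and 727 CPM in Early_S (log2 change -0.92 ± 0.09, adjusted p = 1.5e-10). CHAC1, which breaks down glutathione, had 7.92, 5.43 and 5.38 CPM in G2 and 33.3, 44.6 and 25.1 CPM in Early_S (-2.46 ± 0.30, adjusted p = 5.6e-08). SESN2, an mTORC1 inhibitor, changed by -1.11 ± 0.15 (adjusted p = 2.3e-07), and MTHFD2, of mitochondrial folate metabolism, by -0.54 ± 0.07 (adjusted p = 2.0e-07). Again no G2 library overlapped an Early_S library in ATF4 or CHAC1. Of the 20 aminoacyl-tRNA synthetases, many of them known ATF4 targets, 7 fell and 2 rose, and 11 fell in reads without a T>C conversion. Their median labelled share in Early_S was 11.25%, against 21.9% over all genes tested. Leaving out T>C reads shifts genes with a low share lower in G2, so the larger count is no separate evidence. EPRS changed by -0.52 ± 0.11 (adjusted p = 0.00078), while FARSA changed by 0.68 ± 0.10 (adjusted p = 4.1e-06).

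Ribosome biogenesis genes were higher in G2: 22 of 32 rose and 2 fell, with a median of 0.42. DDX21, a nucleolar helicase, had 464, 418 and 517 CPM in G2 and 248, 231 and 253 CPM in Early_S (log2 change 0.94 ± 0.08, adjusted p = 3.7e-11). WDR43, of the small-subunit processome, had 101, 113 and 113 CPM in G2 and 38.5, 52.0 and 47.3 CPM in Early_S (1.25 ± 0.12, adjusted p = 5.3e-10). NOP16 changed by 1.00 ± 0.11 (adjusted p = 2.3e-09) and RRP1B by 1.22 ± 0.11 (adjusted p = 9.2e-11). The ribosomal proteins themselves went the other way: 66 of 78 fell, with a median of -0.24. RPL19 had 1014, 985 and 1034 CPM in G2 and 1395, 1295 and 1330.5 CPM in Early_S (-0.41 ± 0.06, adjusted p = 1.4e-06). The difference was small, but the libraries of the gates did not overlap. Many ribosomal protein genes have processed pseudogenes, and of the 31 with under 10% multimapped reads 26 were lower.

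Respiratory chain mRNAs showed small falls of the same kind: 18 of 34 fell, with a median of -0.24, and 11 fell without G2 library 2. In reads without a T>C conversion 30 fell. Their median labelled share in Early_S was 9.08%, against 21.9% over all genes tested. Leaving out T>C reads takes more from highly labelled genes in Early_S, which shifts genes with a low share lower in G2. The larger count is therefore no separate evidence of a fall. COX7C changed by -0.44 ± 0.08 (adjusted p = 0.00015) and NDUFA4 by -0.36 ± 0.07 (adjusted p = 0.00024). Glycolysis and hypoxia genes leaned the same way, with 11 of 26 down, 1 up and a median of -0.23. GAPDH had 7469, 7558 and 7579 CPM in G2 and 9695, 8890.0 and 8854 CPM in Early_S, a log2 change of -0.28 ± 0.04 (adjusted p = 2.2e-06). ENO1 changed by -0.26 ± 0.04 (adjusted p = 1.3e-05), and cytoplasmic actin ACTB (77% multimapped) by -0.21 ± 0.04 (adjusted p = 3.0e-04). The common reference genes GAPDH and ACTB thus differed between these gates. Proteasome subunits were mixed, with 10 of 29 lower and 3 higher, and 5 lower without Early_S library 1. PSMB6 changed by -0.32 ± 0.07 (adjusted p = 0.0017).

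Heat shock genes were higher in G2, with 12 of 19 up, 3 down and a median of 0.31, and 7 up of the 13 with under 10% multimapped reads. HSPH1, a cytosolic HSP110 chaperone, had 465, 459.8 and 490.0 CPM in G2 and 328, 315 and 300.2 CPM in Early_S (log2 change 0.59 ± 0.08, adjusted p = 5.5e-07). HSPA1A, inducible HSP70, had 357, 305 and 371 CPM in G2 and 219.8, 266 and 225 CPM in Early_S (0.54 ± 0.09, adjusted p = 9.5e-06). The small heat shock protein CRYAB was lower, at 62.0, 72.2 and 79.9 CPM in G2 and 119, 98.9 and 128 CPM in Early_S (-0.69 ± 0.12, adjusted p = 4.3e-05). Of the cholesterol genes, 5 of 23 rose and 1 fell, with a median of 0.17. HMGCS1, an early enzyme of cholesterol synthesis, had 451, 458 and 449.7 CPM in G2 and 246, 278 and 265 CPM in Early_S (0.78 ± 0.07, adjusted p = 3.4e-11). SQLE, squalene epoxidase, had 59.7, 68.7 and 58.5 CPM in G2 and 27.0, 18.7 and 24.9 CPM in Early_S (1.40 ± 0.16, adjusted p = 1.2e-08). Splicing factors of the SR and hnRNP families had 8 of 29 higher and 2 lower, with 5 higher without Early_S library 1 or G2 library 3 and 14 higher and 8 lower in reads without a T>C conversion.

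YAP targets, actin and matrix genes were mixed, with 3 of 30 higher and 9 lower. COL1A1, the chain of type I collagen, had 1766, 1660.5 and 1669.9 CPM in G2 and 2282, 2126 and 2234 CPM in Early_S (log2 change -0.38 ± 0.05, adjusted p = 4.5e-07), although 9.6% of its reads carried a T>C mark without alkylation. The integrin ITGA2 had 39.3, 38.2 and 45.0 CPM in G2 and 8.03, 22.2 and 17.4 CPM in Early_S (1.37 ± 0.21, adjusted p = 3.7e-06). Of 16 circadian clock genes, 2 fell, among them BHLHE40 (-1.50 ± 0.26, adjusted p = 4.0e-05).

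**Figure D3:**
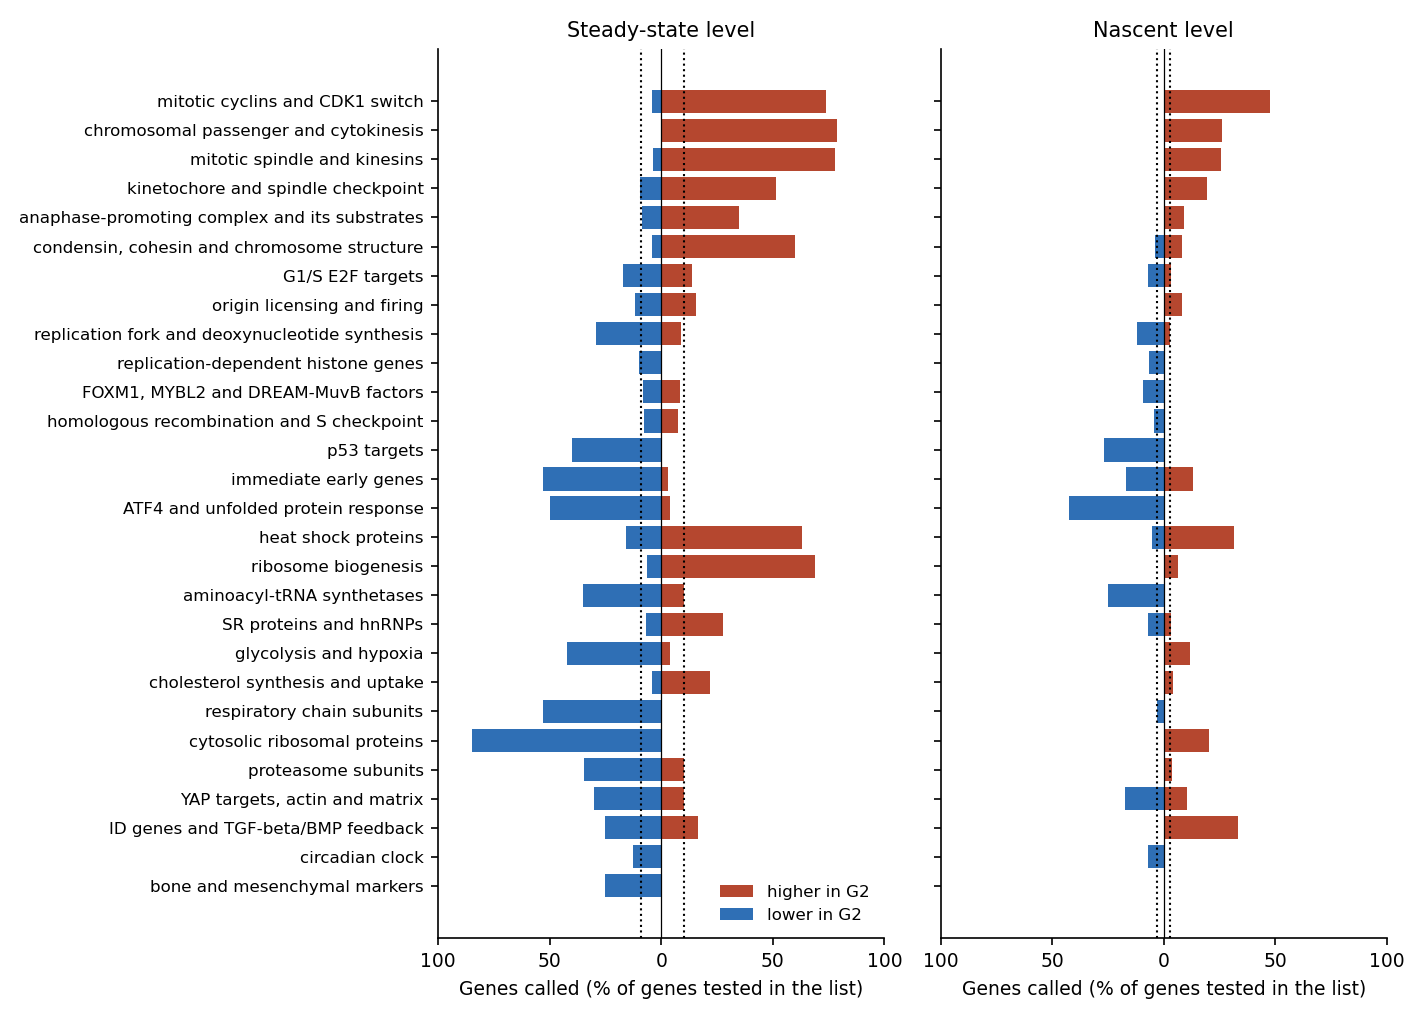
Percentage of the tested genes of each list that were higher (red, to the right) or lower (blue, to the left) in G2, at the steady-state level (left) and the nascent level (right); lists with at least 8 genes tested at steady state are drawn. Dotted lines mark the percentages over all genes tested (10.4% higher and 8.96% lower at steady state, 2.65% and 3.18% at the nascent level). Mitotic lists, heat shock and ribosome biogenesis are among those reaching furthest to the right at steady state, and ribosomal proteins, respiratory chain and immediate early genes among those furthest to the left.

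Outside the lists, the largest steady-state changes were in rarer transcripts. ANTXR2, an anthrax toxin receptor, had 35.2, 26.2 and 25.6 CPM in G2 and 9.62, 2.87 and 4.69 CPM in Early_S (log2 change 2.33 ± 0.26, adjusted p = 9.3e-09). ACTR5, of the INO80 remodeller, had 14.7, 15.1 and 14.2 CPM in G2 and 3.79, 1.63 and 2.35 CPM in Early_S (2.49 ± 0.36, adjusted p = 1.7e-06). LRCH2 had the largest fitted rise among the genes named by size, at very low levels: 0.71, 6.32 and 3.55 CPM in G2, and 0.15, 0.0563 and 0 CPM in Early_S (5.49 ± 1.38, adjusted p = 0.0033). The G2 libraries of LRCH2 differed from each other by more than 8-fold. On the other side, CXCL8, interleukin 8, had 0.109, 0 and 1.23 CPM in G2 and 8.28, 7.43 and 5.96 CPM in Early_S (-3.96 ± 0.86, adjusted p = 0.00074). C10orf10 had 0, 0.679 and 0.273 CPM in G2 and 5.63, 7.59 and 5.96 CPM in Early_S (-4.30 ± 0.75, adjusted p = 4.1e-05). LUM, the matrix proteoglycan lumican, was low in both gates, at 0.0546, 0.0522 and 0.273 CPM in G2 and 1.89, 3.49 and 3.49 CPM in Early_S (-4.44 ± 1.26, adjusted p = 0.0095).

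At the nascent level, 304 of 11474 genes tested (2.65%) were higher in G2 and 365 (3.18%) were lower, by edgeR with Benjamini-Hochberg adjustment. Nascent values are relative to the bulk of T>C reads of a library, and they do not carry the overall fall in labelled reads. When T>C reads were instead scaled by all reads of the library, the median gene stood at -0.95 on the log2 scale, against -0.03 in the main scaling, and 18 genes were higher and 4488 lower. Nascent directions below are therefore relative to other new RNA. Libraries mattered more here: 200, 190 and 169 genes were higher without Early_S library 1, 2 or 3, and 222 and 215 were lower without Early_S library 2 or 3. DESeq2 called 490 higher and 563 lower, and a fit of only the 6 libraries called 185 and 238. Of the 669 called genes, 270 kept their call in all 6 fits that leave out a library. The gates did not overlap in 98.5% of the called genes, and in 22.5% of all genes tested at this level.

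Mitotic genes were higher among T>C reads. Of 23 mitotic cyclins and CDK1 switch genes, 11 rose, 7 of them without Early_S library 3, and the median was 0.70 but -0.23 when scaled by all reads. CCNF, an F-box protein of G2, had 886, 853 and 848 T>C CPM in G2 and 406, 445 and 395 T>C CPM in Early_S (log2 change 1.05 ± 0.13, adjusted p = 4.4e-06; 0.13 when scaled by all reads). PLK1 had 449, 415 and 437 T>C CPM in G2 and 256, 193 and 206 T>C CPM in Early_S (0.99 ± 0.16, adjusted p = 2.0e-04; 0.06 scaled by all reads). CCNB1 had 1129.8, 1058 and 1059 T>C CPM in G2 and 552, 548 and 728 T>C CPM in Early_S (0.83 ± 0.14, adjusted p = 3.0e-04; -0.10 scaled by all reads). All G2 libraries lay above all Early_S libraries in these 3 genes. CCNA2 changed by 0.70 ± 0.18 (adjusted p = 0.015; -0.23 scaled by all reads) and lost its call in 3 of the 6 fits that leave out a library. CDC20 changed by 0.79 ± 0.15 (adjusted p = 0.0013; -0.13 scaled by all reads).

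The other mitotic lists had fewer calls, and some hardly moved. Of 25 condensin, cohesin and related genes 2 were higher and 1 lower, with a median of 0.09 that was -0.05 without Early_S library 1 and -0.83 scaled by all reads. Of 22 genes of the anaphase-promoting complex and its substrates 2 were higher, 1 without Early_S library 3 or G2 library 1, and none of the 18 with under 10% multimapped reads, with a median of 0.11, or -0.81 scaled by all reads. Passenger and cytokinesis genes had 5 of 19 higher, 2 without Early_S library 2 or 3, 3 without Early_S library 1, G2 library 2 or G2 library 3, and 8 with DESeq2; the median was 0.80, and -0.12 scaled by all reads. CDCA8 had 326, 323 and 423 T>C CPM in G2 and 149, 142 and 207 T>C CPM in Early_S (log2 change 1.11 ± 0.20, adjusted p = 0.00088; 0.19 scaled by all reads). Spindle and kinesin genes had 7 of 27 higher, 4 without Early_S library 1 and 3 without Early_S library 2, and a median of 0.58, or -0.35 scaled by all reads. Among them FAM83D had 758, 610.2 and 774 T>C CPM in G2 and 191, 196 and 178 T>C CPM in Early_S, a change of 1.92 ± 0.16 (adjusted p = 2.5e-09) that was 1.00 even when scaled by all reads. In the kinetochore list 6 of 31 rose, 3 without Early_S library 1, Early_S library 3 or G2 library 1, with a median of 0.35, or -0.56 scaled by all reads. HJURP, the chaperone of centromeric histone, changed by 1.14 ± 0.20 (adjusted p = 0.00037; 0.22 scaled by all reads), and BUB1B by 1.89 ± 0.42 (adjusted p = 0.0054; 0.95 scaled by all reads). TOP2A, called at steady state, had 199.8, 162 and 205 T>C CPM in G2 and 96.6, 148 and 66.0 T>C CPM in Early_S (0.87 ± 0.27, adjusted p = 0.056).

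Among the genes named here and called higher in new RNA, the largest rise was that of GPSM2 (chr1:108929941-108934545, plus strand), whose product LGN orients the mitotic spindle. It had 103, 61.4 and 128 T>C CPM in G2 and 5.69, 7.65 and 7.45 T>C CPM in Early_S, a log2 change of 3.81 ± 0.60 (adjusted p = 0.00014), and 2.91 when scaled by all reads. At steady state GPSM2 had 56.8, 54.3 and 66.6 CPM in G2 and 10.3, 10.6 and 17.6 CPM in Early_S (2.21 ± 0.20, adjusted p = 7.7e-11). The gates were separate at both levels, and the Late_S means (62.0 T>C CPM and 35.3 CPM) lay between them. DNMT3B, a de novo DNA methyltransferase, changed by 2.83 ± 0.60 in nascent reads (adjusted p = 0.0037), and ICE1, of the complex that elongates small nuclear RNA genes, by 2.77 ± 0.59 (adjusted p = 0.0037). Their G2 libraries ranged between 41.7 and 103 T>C CPM for DNMT3B and between 26.9 and 67.0 T>C CPM for ICE1. Both had higher values in every G2 library than in any Early_S library. The rule for genes named by size required no overlap between gates. That separation is therefore no separate evidence, here or for GPSM2 in new RNA.

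Few replication genes were called at the nascent level, where 2.65% of all genes tested were higher and 3.18% lower. Counts in the licensing and E2F lists were within a few genes of those shares. Of 25 origin licensing genes 2 were higher, and none without Early_S library 2, Early_S library 3 or G2 library 3 or in the fit of 6 libraries, with a median of 0.06, or -0.89 scaled by all reads. The fork and deoxynucleotide list had 4 of 34 lower, 2 without Early_S library 3, and 1 higher. RRM2 had 523, 534 and 544 T>C CPM in G2 and 995, 863 and 909.6 T>C CPM in Early_S (log2 change -0.79 ± 0.11, adjusted p = 1.4e-05). FEN1, the flap endonuclease of Okazaki fragments, had 284, 314 and 385 T>C CPM in G2 and 543, 541 and 517 T>C CPM in Early_S (-0.70 ± 0.13, adjusted p = 0.0014). TYMS, thymidylate synthase, changed by -0.62 ± 0.13 (adjusted p = 0.0041) and lost its call without Early_S library 3. Of the 29 E2F targets, 2 fell and 1 rose. CCNE1 had 222, 229 and 186 T>C CPM in G2 and 392, 421 and 338 T>C CPM in Early_S, a change of -0.85 ± 0.15 (adjusted p = 0.00051) that held in all 6 fits, unlike its steady-state call. ASF1B, a histone chaperone, had 68.1, 29.0 and 47.2 T>C CPM in G2 and 149, 191 and 113 T>C CPM in Early_S (-1.65 ± 0.31, adjusted p = 0.001). PCNA overlapped between gates here too, at 219, 195 and 205 T>C CPM in G2 and 200.3, 280.4 and 251 T>C CPM in Early_S (-0.24 ± 0.18, adjusted p = 0.53), and HIST1H4C did not pass the test (-0.55 ± 0.18, adjusted p = 0.078).

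The p53 and ATF4 lists leaned lower in new RNA as well, under both scalings, while the immediate early genes were divided. Of 30 p53 targets, 8 fell, 5 without Early_S library 2 or in the fit of 6 libraries only, with a median of -0.63 and of -1.56 scaled by all reads. CDKN1A had 692, 500.0 and 691 T>C CPM in G2 and 1829, 1789 and 1806 T>C CPM in Early_S (log2 change -1.53 ± 0.11, adjusted p = 2.3e-10). PMAIP1 changed by -1.12 ± 0.16 (adjusted p = 2.6e-05) and GADD45A by -0.67 ± 0.14 (adjusted p = 0.0022). EGR1 had 50, 19.9 and 28.9 T>C CPM in G2 and 244, 281 and 301 T>C CPM in Early_S (-3.06 ± 0.25, adjusted p = 2.5e-09). ATF3 had 12.6, 1.70 and 2.23 T>C CPM in G2 and 142, 162 and 118 T>C CPM in Early_S (-4.69 ± 0.48, adjusted p = 2.4e-07). NR4A1 changed by -2.98 ± 0.41 (adjusted p = 2.1e-05). EGR1, ATF3 and NR4A1 are among the immediate early genes that were lower. That list as a whole was divided, with 5 of 30 lower, 4 higher and a median of -0.13. Its log2 changes ran between -4.69 and 2.01. The number higher was 2 without Early_S library 1, Early_S library 2, G2 library 1 or G2 library 3, and 1 without Early_S library 3.

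ATF4 targets had 11 of 26 lower in new RNA, 5 without Early_S library 2 and 7 without G2 library 1, with a median of -0.50. ASNS, asparagine synthetase (12% multimapped), had 31.3, 9.66 and 19.6 T>C CPM in G2 and 122, 81.2 and 145 T>C CPM in Early_S (log2 change -2.52 ± 0.44, adjusted p = 0.00049). PSPH, the last enzyme of serine synthesis, had 12.6, 1.70 and 5.34 T>C CPM in G2 and 65.9, 61.2 and 85.3 T>C CPM in Early_S (-3.43 ± 0.70, adjusted p = 0.0025). SLC7A5, an amino acid transporter, changed by -1.07 ± 0.20 (adjusted p = 0.00091) and MTHFD2 by -0.88 ± 0.12 (adjusted p = 2.0e-05). Of 20 tRNA synthetases 5 fell, 2 of them without Early_S library 2, and 3 without Early_S library 3 or G2 library 3. WARS had 46.1, 29.0 and 16.5 T>C CPM in G2 and 111, 143 and 116 T>C CPM in Early_S (-2.02 ± 0.38, adjusted p = 0.0012). Each of these genes had all its G2 libraries below all its Early_S libraries.

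ID1 and ID3, inhibitors of helix-loop-helix factors that BMP signals switch on, were higher among T>C reads. In the list of ID genes and TGF-beta or BMP feedback, 4 of 12 rose, with a median of 0.50, and -0.42 scaled by all reads. ID1 had 4516, 4662 and 4350.1 T>C CPM in G2 and 2049, 2359 and 2421 T>C CPM in Early_S (log2 change 0.99 ± 0.08, adjusted p = 9.9e-10; 0.06 scaled by all reads). At steady state ID1 had 532, 501 and 523 CPM in G2 and 460.1, 479.7 and 529.6 CPM in Early_S, which overlap (0.08 ± 0.07, adjusted p = 0.47). ID3 changed by 0.95 ± 0.11 in new RNA (adjusted p = 2.6e-06; 0.04 scaled by all reads). NOG, the secreted BMP antagonist noggin, had 1258, 1443 and 1197 T>C CPM in G2 and 441, 480.2 and 537 T>C CPM in Early_S (1.42 ± 0.11, adjusted p = 1.8e-09; 0.49 scaled by all reads). Its steady-state change was smaller, at 0.50 ± 0.10 (adjusted p = 0.00021), and its Late_S means (1385 T>C CPM and 183 CPM) were above those of G2. Heat shock genes had 6 of 19 higher and 1 lower (3 higher of the 13 with under 10% multimapped reads), and a median of 0.39, or -0.53 scaled by all reads. HSPA1A changed by 0.70 ± 0.11 (adjusted p = 0.00017; -0.21 scaled by all reads) and DNAJB1, its J-domain partner, by 0.62 ± 0.11 (adjusted p = 0.00097; -0.31 scaled by all reads). WDR43 was 1 of 2 ribosome biogenesis genes called, at 1.23 ± 0.19 (adjusted p = 0.00011; 0.31 scaled by all reads), and the squalene synthase FDFT1 was the 1 cholesterol gene, at 1.11 ± 0.22 (adjusted p = 0.0016; 0.19 scaled by all reads). In the hypoxia list ADM, adrenomedullin, changed by 0.96 ± 0.22 (adjusted p = 0.0086; 0.04 scaled by all reads).

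Of 29 YAP target, actin and matrix genes 5 were lower and 3 higher in new RNA, with a median of -0.11. The number higher was 1 without Early_S library 3 or G2 library 3. TIMP1, an inhibitor of matrix metalloproteinases, had 174, 224 and 134 T>C CPM in G2 and 851, 977 and 926 T>C CPM in Early_S (log2 change -2.37 ± 0.17, adjusted p = 2.7e-10). Its steady-state level changed by only -0.25 ± 0.07 (adjusted p = 0.0054), with 577, 570.3 and 580.2 CPM in G2 and 653, 691 and 709 CPM in Early_S. The actin-binding TAGLN changed by -1.46 ± 0.28 (adjusted p = 0.0015). AMOTL2, an angiomotin that YAP induces, went up among T>C reads by 0.74 ± 0.09 (adjusted p = 3.5e-06), but stood at -0.18 scaled by all reads. RRAD, TMEM40 and RIPOR2 had no T>C read in any G2 library. In Early_S they ran between 19.3 and 43.0 T>C CPM for RRAD, between 4.65 and 25.2 for TMEM40 and between 9.56 and 21.0 for RIPOR2. Set against a floor of 3 reads over the G2 libraries, RRAD was at least 53.2-fold lower (adjusted p = 0.0013), TMEM40 at least 31.8-fold lower (adjusted p = 0.011) and RIPOR2 at least 31.4-fold lower in G2 (adjusted p = 0.012). BCL2A1, a survival protein of the BCL2 family, had 0, 0 and 1.34 T>C CPM in G2 and 23.8, 31.5 and 23.4 T>C CPM in Early_S (-5.62 ± 1.04, adjusted p = 0.001). The chemokine CXCL16 had 1.1, 0 and 0 T>C CPM in G2 and 16.8, 41.1 and 16.3 T>C CPM in Early_S (-5.97 ± 1.16, adjusted p = 0.0015).

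Of the genes tested at both levels, 169 were higher in G2 at both and 174 lower at both, while 1224 were higher and 1003 lower at steady state alone. T>C reads are part of all reads, so the 2 levels are not independent. A further 21 genes were higher at steady state and lower in new RNA, and 21 the reverse. DHRS2 (chr14:23644938-23645639, plus strand), a short-chain dehydrogenase, was the most abundant named gene of the first kind. It had 4900.4, 4147 and 4371 CPM in G2 and 2112, 2107 and 2153 CPM in Early_S (log2 change 1.07 ± 0.05, adjusted p = 8.2e-20). In new RNA it had 2424, 2354 and 2188 T>C CPM in G2 and 3100.5, 3434 and 3349 T>C CPM in Early_S (-0.50 ± 0.07, adjusted p = 5.5e-05). The libraries of the gates were separate at both levels, in opposite order. EMP1, an epithelial membrane protein, changed by 0.47 ± 0.06 at steady state (adjusted p = 5.3e-07) and by -1.06 ± 0.12 in new RNA (adjusted p = 7.5e-07). PDLIM4, an actin-associated LIM protein, changed by 0.45 ± 0.07 (adjusted p = 4.1e-06) and -1.29 ± 0.16 (adjusted p = 3.9e-06), and the kinase MAP2K3 by 0.51 ± 0.09 (adjusted p = 7.9e-05) and -0.95 ± 0.17 (adjusted p = 0.00064). In the reverse direction, GAPDH rose among T>C reads by 0.50 ± 0.08 (adjusted p = 0.00011; -0.42 scaled by all reads) and the ribosomal stalk protein RPLP1 by 0.59 ± 0.08 (adjusted p = 3.5e-05; -0.33 scaled by all reads), while both fell at steady state. Ribosomal proteins as a list had 16 of 78 higher in new RNA, 9 without Early_S library 3, with a median of 0.22, or -0.70 scaled by all reads. Of the 31 with under 10% multimapped reads, 7 were higher.

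**Figure D4:**
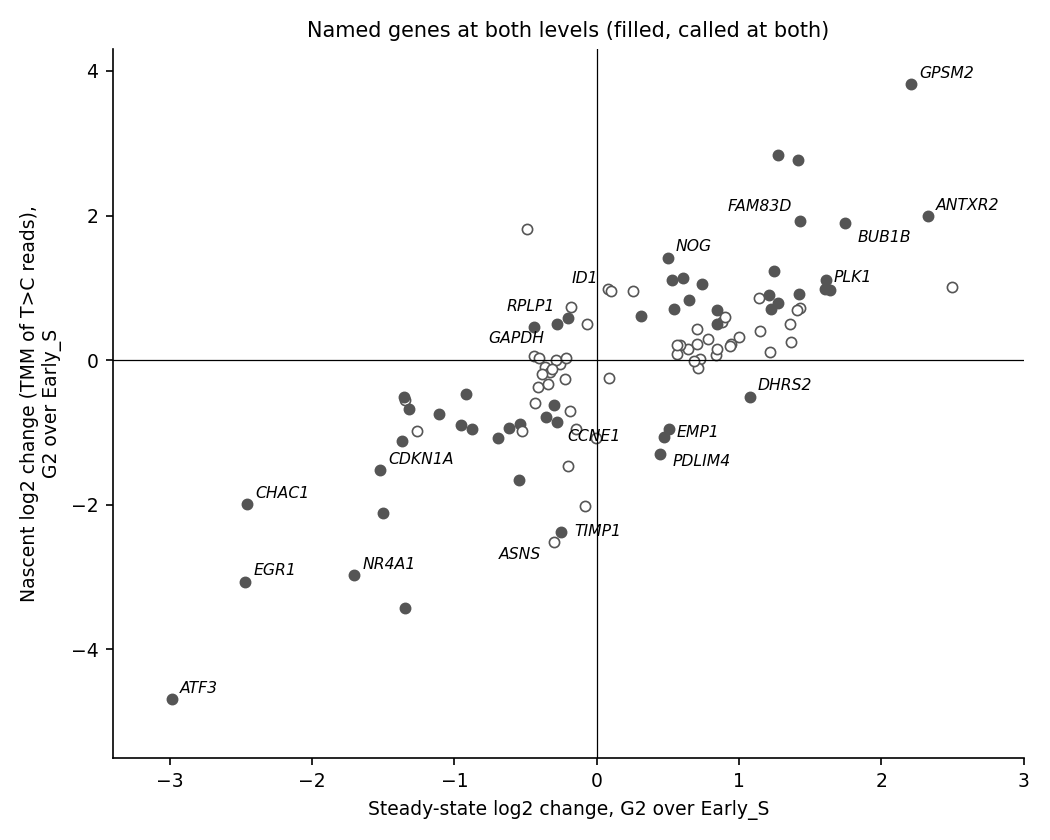
Log2 change of G2 over Early_S at steady state (horizontal) and in T>C reads scaled by their own TMM factors (vertical) for 106 named genes; filled circles passed the test at both levels. A further 8 genes lie beyond the axes. GPSM2 lies furthest up, ATF3 furthest down, and DHRS2, EMP1 and PDLIM4 lie in the lower right quadrant, higher at steady state and lower in new RNA.

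The labelled share was lower in G2 for most genes, with a median of 10.2% in G2 and 21.9% in Early_S over 11291 genes tested. In Late_S the median was 10.9%. One edgeR model of T>C against other reads, each scaled by its own factors, asked which genes departed from that general fall: 323 (2.86%) were relatively higher in G2 and 920 (8.15%) relatively lower. The test works on log-odds, so under an even fall in labelling a gene with a high share drops further on its scale than a gene with a low share. A gene whose share was the same in both gates counts as relatively higher. The call count depends on the centre: with the median gene set equal, 406 were higher and 568 lower, and with both kinds of read scaled by all reads 5 were higher and 5488 lower. Without Early_S library 1 or 3, 209 or 200 genes were relatively higher. The 323 genes called higher had median shares of 6.68% in G2 and 8.35% in Early_S, and the 920 called lower had 15.9% and 53.8%.

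Binned by their share in Late_S, a gate not used in the comparison, genes differed in how far the share fell. Where the Late_S share was 10% to 20%, the median share was 12.7% in G2 and 27.3% in Early_S, a median ratio of 0.436 over 2528 genes. Where it was 60% to 100%, the medians were 71.1% in G2 and 88.5% in Early_S, a ratio of 0.829 over 256 genes. In the bin of 40% to 60% the ratio was 0.638 over 408 genes, and over all 9440 genes it was 0.477. A share near 100% in Early_S leaves no room for a higher one in G2.

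**Figure D5:**
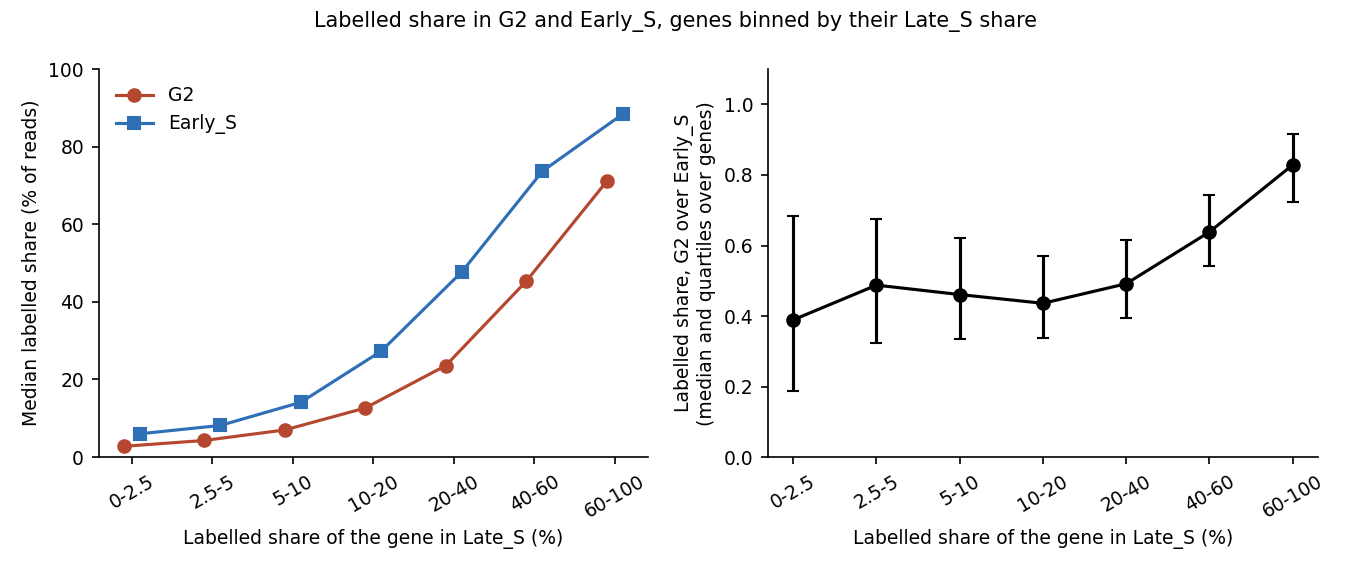
Genes were binned by their labelled share in Late_S (horizontal axis, %). The left panel shows the median labelled share in G2 (red circles) and Early_S (blue squares), and the right panel the median over genes of the G2 to Early_S ratio with quartiles. The ratio lies between 0.389 and 0.492 up to a Late_S share of 40%, and reaches 0.829 in the top bin.

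The labelled share of mitotic genes was lower in G2 by about as much as that of other genes: after subtracting the No_alkylation share, the median G2 to Early_S ratio was 0.448 for the mitotic cyclin list, 0.403 for the passenger list, 0.463 for the spindle list and 0.482 for all genes. In the mitotic cyclin list the median share was 21.0% in G2 and 45.3% in Early_S, and 10 of 23 genes were relatively lower and 1 higher, with 6 lower when centred on the median gene or without Early_S library 2 or 3. PLK1 had shares of 16.6%, 17.5% and 18.8% in G2 and 53.7%, 49.9% and 49.6% in Early_S (log2 change in odds -1.13 ± 0.20, adjusted p = 0.00047). AURKA had 19.8%, 26.6% and 22.6% in G2 and 69.9%, 69.6% and 69.1% in Early_S (-1.78 ± 0.27, adjusted p = 7.3e-05). The kinesin KIF18B had 33.2%, 35.9% and 43.5% in G2 and 93.8%, 91.1% and 87.2% in Early_S (-2.91 ± 0.40, adjusted p = 2.1e-05). These genes had high shares in Early_S, where the log-odds scale enlarges a fall. In PLK1, AURKA and KIF18B about 0.5 of the reads or more were labelled in Early_S, and every G2 library lay below every Early_S library. Such separation was common, since the shares of the gates did not overlap in 56.6% of all genes tested. CCNB1 had 33.6%, 28.1% and 30.7% in G2 and 51.9%, 44.1% and 57.5% in Early_S, with no detectable departure from the bulk of genes (-0.08 ± 0.17, adjusted p = 0.84). Across all genes, 331 were higher at steady state and relatively lower in share, and 7 were higher in both. All reads of a gene are the base of its share, so the 2 measures are not independent. Over all genes tested, 8.15% were relatively lower in share and 2.86% relatively higher.

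Several genes of other kinds also had a much smaller share in G2. DHRS2 had shares of 4.92%, 5.21% and 5.12% in G2 and 28.3%, 28.8% and 29.1% in Early_S (log2 change in odds -1.75 ± 0.08, adjusted p = 3.8e-13). EMP1 had 6.84%, 8.71% and 8.29% in G2 and 43.1%, 42.5% and 45.8% in Early_S (-2.02 ± 0.14, adjusted p = 7.6e-10). PDLIM4 had 4.09%, 5.00% and 6.01% in G2 and 31.3%, 30.7% and 33.4% in Early_S (-1.99 ± 0.18, adjusted p = 3.6e-08). In all 3 the gates were far apart, with each G2 library below 10% and each Early_S library above 28%. CDKN1A had 42.6%, 35.1% and 45.5% in G2 and 78.8%, 75.3% and 80.2% in Early_S (-1.20 ± 0.13, adjusted p = 6.8e-07). The death receptor gene TNFRSF10B changed by -2.83 ± 0.44 (adjusted p = 9.8e-05). Of 30 p53 targets 5 were relatively lower, against 8.15% of all genes tested. The number was 3 without Early_S library 1 or 3 or any 1 of the G2 libraries, and 2 in the fit of 6 libraries only. Centred on the median gene, 3 were lower and 1 higher. The list as a whole is therefore not read as departing from the other genes. EGR1, low in reads in G2, had 43.5%, 11% and 27.5% there and 67.7%, 74.1% and 72.3% in Early_S (-1.71 ± 0.41, adjusted p = 0.0071).

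A few genes kept their labelled share in G2. ID1 had 84.5%, 85.5% and 85.2% in G2 and 85.9%, 86.8% and 85.6% in Early_S, which counts as relatively higher (log2 change in odds 1.04 ± 0.11, adjusted p = 3.5e-07; -0.13 scaled by all reads). NOG had 77.7%, 74.0% and 80.7% in G2 and 77.9%, 74.8% and 80.0% in Early_S (1.16 ± 0.17, adjusted p = 6.2e-05; about 0 scaled by all reads). CYR61, a YAP target, changed by 1.07 ± 0.20 (adjusted p = 0.00081; -0.09 scaled by all reads). HIST1H4C had 54.1%, 52.7% and 50% in G2 and 58.5%, 57.6% and 55.9% in Early_S (0.87 ± 0.17, adjusted p = 9.0e-04; -0.30 scaled by all reads), while its Late_S share was 37.1%. The shares of ID1, NOG and CYR61 overlapped between gates, and those of HIST1H4C were slightly lower in G2.

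Ribosomal protein genes kept more of their small share than the median gene did. Of 78, 72 were relatively higher, but when both kinds of read were scaled by all reads 55 were lower and none higher. Among the 31 with under 10% multimapped reads, 28 were relatively higher. The median share was 5.44% in G2 and 7.01% in Early_S. After subtracting the No_alkylation share, the median G2 to Early_S ratio was 0.697 for these genes, against 0.482 for all genes. RPLP1 had 4.03%, 3.75% and 4.34% in G2 and 4.69%, 4.04% and 4.56% in Early_S (log2 change in odds 1.02 ± 0.08, adjusted p = 2.5e-09; -0.14 scaled by all reads). GAPDH had 4.13%, 3.53% and 3.56% in G2 and 4.12%, 4.27% and 4.00% in Early_S (1.01 ± 0.08, adjusted p = 5.9e-09; -0.15 scaled by all reads). HSP90AA1 (16% multimapped) had 14.7%, 14.7% and 15.1% in G2 and 19.3%, 19.6% and 18.4% in Early_S (0.73 ± 0.09, adjusted p = 3.3e-06; -0.43 scaled by all reads). Within the heat shock list DNAJB1 went the other way, at 53.3%, 55.1% and 48.7% in G2 and 78.6%, 81.7% and 82.5% in Early_S (-0.79 ± 0.17, adjusted p = 0.0024). Among genes named by size, UCP2, a mitochondrial carrier, had a higher share in every G2 library: 5.34%, 7.91% and 4.37% in G2 and 2.56%, 2.40% and 1.91% in Early_S (2.54 ± 0.47, adjusted p = 0.00071). No overlap between gates was a condition of being named by size. Of the 301 genes called relatively higher with a measurable ratio, 66 had a G2 to Early_S ratio of shares above 1.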

How the data were processed

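The authors counted reads over 68625 regions per library with slamdunk 0.2.4, per the file headers, and the submitters' processing notes name hg38 and Ensembl release 90. The deposited counts of reads, T>C reads, covered and converted T positions and multimapped reads were used as they stand. The sources at hand give no aligner settings. Values of all regions sharing a gene name were added (19531 names), and the gene lists, members and named genes were chosen with earlier results of these data known. The rule for named genes took, per comparison, up to 8 genes each way by size (at least 50 reads, no overlap of gates, under 10% multimapped reads), up to 4 per list by p, up to 6 each way called in opposite directions at both levels, and 14 by name.

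Counts were fitted over the 12 alkylated libraries with edgeR 4.0.16 (R 4.3.3) quasi-likelihood, TMM and filterByExpr (count minimum 10, total minimum 15), two-sided, and called at a Benjamini-Hochberg adjusted p under 0.05. CPM values use the TMM-scaled library size. The labelled share used T>C and other reads as 2 columns per library with library as a block. DESeq2 1.42.0 was an alternative, as were RLE factors, no filter, 6 libraries only, other scalings and leaving out each library. The fits were tested on simulated data. RefSeq promoters were found for 10852 of the 13755 genes tested. Reads carry no molecular identifiers, so the floor of 3 reads covers counting error only. Some genes are not reported here.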

Additional observations from a re-analysis of the deposited data

How the results depend on the processing

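Directions and calls of the gene results named above held under RLE factors, no filter and DESeq2 in nearly every case, and 4 gene results lost a call when 1 library was left out (CCNE1 and CCNE2 at steady state, CCNA2 and TYMS in new RNA). Counts of calls moved more, and small counts within lists moved by a few genes when single libraries were left out. In reads without a T>C conversion 1880 genes were lower at steady state and CCNE1 stood at 0.22. DESeq2 called 490 genes higher and 563 lower in new RNA, and the 6 libraries alone 185 and 238. Scaled by all reads, 18 genes were higher and 4488 lower in new RNA, and 5 and 5488 in labelled share; with the median gene as centre, 568 were lower in share. Under that all-reads scaling these turned negative in new RNA: CCNB1 (-0.10), CCNA2 (-0.23), CDC20 (-0.13), HSPA1A (-0.21), DNAJB1 (-0.31), GAPDH (-0.42), AMOTL2 (-0.18) and RPLP1 (-0.33), and in share ID1 (-0.13), NOG (-0.0040), GAPDH (-0.15), RPLP1 (-0.14), HIST1H4C (-0.30), CYR61 (-0.093) and HSP90AA1 (-0.43). The scaling itself sets this shift, since it carries the lower labelling of G2. A further 10 gene results kept their direction but lost their call under all-reads scaling. In new RNA, PLK1, CCNF, CDCA8, BUB1B, ID1 and ID3 were not among the 18 genes higher. In reads without a T>C conversion 8 gene results lost their call.

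Leaving out 1 library in turn gave 169 to 263 genes higher and 215 to 368 lower in new RNA, 200 to 314 higher and 659 to 804 lower in share, and 1141 to 1252 higher and 893 to 1027 lower at steady state; the cause was not tested. Deviations of same-numbered libraries correlated only weakly (0.0056 to 0.0167 at steady state and 0.0302 to 0.0519 in new RNA). Libraries of different number ran between -0.0415 and 0.014 in new RNA. Whether the numbers pair the libraries cannot be told from such small values. With the replicate number as a block, 1464 genes were higher and 1328 lower at steady state, 303 and 373 in new RNA, and 328 and 896 in share. In new RNA every library correlated best with its own number, and at steady state not every one did, which is a hint from the data only. Depth limits the rare transcripts: genes such as LRCH2, LUM and BCL2A1 rest on few reads in 1 gate. With 3 libraries a gate, the exact tests of library-wide labelling cannot go below 0.1.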
